A study of Homo sapiens with 6 samples.

Results

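The comparison of p65 siRNA with control siRNA rests on 3 of the 6 arrays of the series, 1 each at 1, 3 and 6 h of stimulation. They were chosen by the siRNA named in the sample titles, with no use of measured values. Each was a 2-colour spotted array. Its Cy5 channel held RNA from p65 siRNA-transfected Jurkat, a line established from a human T-cell leukaemia. The Cy3 channel held RNA from Jurkat cells given nonspecific siRNA and stimulated for the same time, so treated and control cells shared the cell line, the transfection and the stimulus, 1 ug of anti-CD3/CD28. The 3 remaining arrays of the series carried RPS3 siRNA against control siRNA at the same times. Their values are quoted beside the p65 siRNA values, some with a test of the difference. They also share the estimate of the spread behind the p-values of the p65 siRNA means. Dyes were never swapped, and controls were not hybridised against each other. A single time therefore had no replicate check, and the 3 times stood as replicates of the knockdown. Only ratios were at hand, so the T-cell identity of the cells could not be checked against marker levels. The number of arrays limits the precision, and signal over background is unknown.

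The transcription factor NF-kB is a dimer of Rel family proteins, and p65, the product of RELA, carries a transactivation domain. IkB proteins hold the dimers in the cytoplasm until IkB kinases phosphorylate them for destruction, a step that T-cell receptor and CD28 engagement triggers. Freed dimers bind kB sites in the promoters of cytokines, surface receptors and survival genes, and of the inhibitors IkB-alpha and A20 that shut the signal down again. Knockdown of p65 in stimulated T cells asks which of these transcripts depend on it.

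Of 15246 probes, 14423 had a value on the 1 h array, 13701 on the 3 h array and 12984 on the 6 h array. The spread over probes differed between them: the SD of the log2 ratio was 0.29, 0.51 and 0.37, and 518 probes exceeded 1 at 3 h against 4 at 1 h. Values are log2 ratios of p65 siRNA over control siRNA, the likely direction given the dyes, so a value below 0 means less signal in the knockdown. Over probes the 1 h and 3 h arrays correlated at r = 0.18 (13187 probes), the 1 h and 6 h arrays at -0.15 (12511) and the 3 h and 6 h arrays at -0.06 (12325). These are descriptions over probes that share an array, and probes are not replicates. The 11943 probes with a value on all 3 arrays gave 7904 features, 4103 gene symbols and 3801 unnamed probes.

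RELA itself was examined first, since it is the siRNA's target. The mean of its 2 probes read -0.41, -0.46 and -0.59 at 1, 3 and 6 h, a mean of -0.49 ± 0.09 (SD, n = 3), or 1.40-fold lower (limma adjusted p = 0.940). All 3 arrays lay below 0 and close to each other. The probes themselves did not move alike. Probe 15848_1 read -0.71, -0.98 and -1.05, a mean of -0.91 or 1.88-fold lower, and each of its arrays lay well below those of the second probe. Probe 28407_1 read -0.12, 0.06 and -0.13, on both sides of 0. Tested alone, the first had a limma adjusted p of 0.203 over 11943 probes and the second 0.98. On the RPS3 siRNA arrays RELA read -0.39, -0.69 and -0.54 at the same times, and the difference between the siRNAs was 0.05 (limma adjusted p = 1.00). Averaged over its 2 probes, RELA thus lay below 0 at every time with both siRNAs. The probes parted with RPS3 siRNA too, where 15848_1 averaged -1.07 and 28407_1 averaged -0.01.

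**Figure D1:**
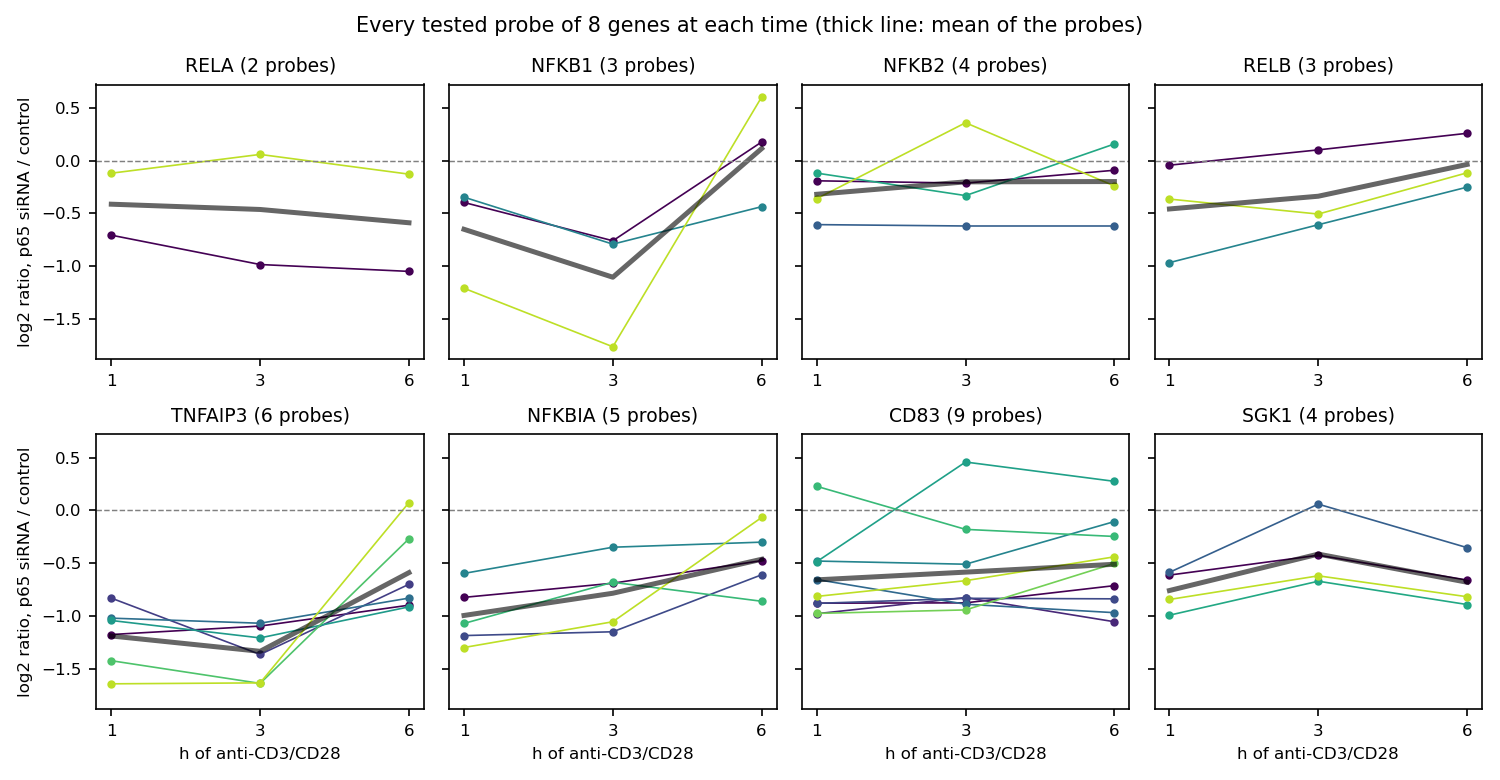
Log2 ratio of p65 siRNA over control siRNA (y axis) at 1, 3 and 6 h of anti-CD3/CD28 (x axis) for each tested probe of 8 genes, 1 thin line per probe, with the mean of a gene's probes as a thick line. All 5 NFKBIA probes lie below 0 at each time, 1 of 6 TNFAIP3 probes reaches 0.07 at 6 h, and the 2 RELA probes run apart.

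Tested over all features, the knockdown gave no call. limma called 0 of 7904 genes and unnamed probes (0% called, lowest adjusted p = 0.758) and 0 of 11943 single probes (0% called, lowest adjusted p = 0.112). Without adjustment 379 features had a p under 0.05, where 5% of 7904 is 395. Of these, 214 were higher (2.71% of features) and 165 lower (2.09%). A mean below 0 was found for 43.7% of features, a value below 0 on all 3 arrays for 9.11%, and a value above 0 on all 3 for 13.6%. A p above the threshold with 3 arrays does not show that a transcript was unaltered. Values for single genes below are therefore measurements with their spread, and none passed the test.

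Several genes at the low end had many probes. Counted from the lowest mean of the 4103 symbols, TNFAIP3 had rank 1, NFKBIA rank 8, SGK1 rank 17, CD83 rank 21, NFKB1 rank 25 and RELA rank 36. The 20 probes with the smallest limma p-values, a list looked up after their values were seen, held 4 for TNFAIP3, 4 for CD83, 3 for NFKBIA, 2 for SGK1, 1 for RELA, 1 for SPI1 and 5 without a symbol. SPI1 encodes the lineage factor PU.1. Its probe 24559_1 read -0.99, -0.79 and -0.96, whereas the other 4 tested SPI1 probes averaged between -0.20 and 0.04, so that probe stood alone for its gene. Across the 996 symbols with at least 3 tested probes, 170 had every probe mean below 0 and 201 every probe mean above 0. Only 5 of them had every probe mean at or below -0.4, TNFAIP3, NFKBIA, CD2AP, ITGA4 and RESF1, and 0 had every probe mean at or above 0.4. Of all 2117 symbols with 2 or more tested probes, 1042 (49.2%) had probe means on opposite sides of 0.

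**Figure D2:**
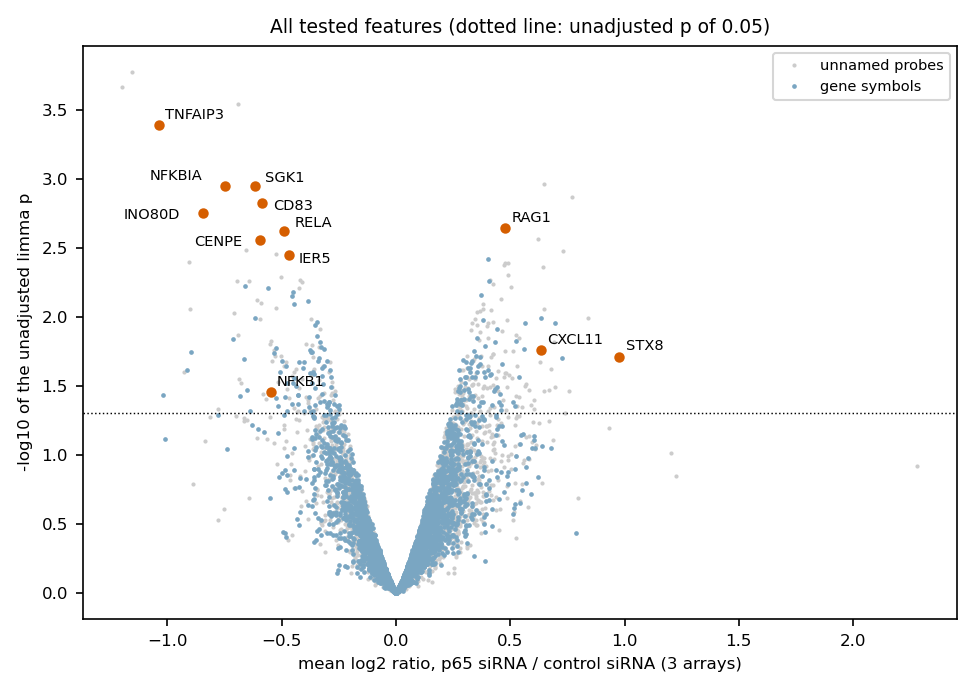
Mean log2 ratio over the 3 arrays (x axis) against −log10 of the unadjusted limma p (y axis) for the 7904 tested features, with gene symbols in blue, unnamed probes in grey and 12 named genes in orange. TNFAIP3, NFKBIA, SGK1 and CD83 lie at the upper left, with means from -1.04 to -0.58, and none of the points passes after adjustment.

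Sequences upstream of TNFAIP3, NFKBIA, CD83 and NFKB1, and of CXCL10 for comparison, show where the kB consensus motif occurs. Each printed window holds a match. Windows without a match are not printed, among them those of SGK1 and RELA, which also lay at the low end. This is the classical NF-kB pattern that opens with GGG and closes with CC; it was searched on both strands in the 250 bases before each RefSeq start on GRCh38.p14, and overlapping matches were joined. Of 35116 such windows 9.96% held a match, as did 17.3% of the 3362 tested symbols with a window. The last 150 bases before the start are printed, 5′ to 3′ along the gene's strand, with matches in capitals. TNFAIP3 is shown at chr6:137867109-137867258 (plus strand), NFKBIA at chr14:35404750-35404899 (minus), the second of 2 CD83 windows at chr6:14117622-14117771 (plus), the first of 2 NFKB1 windows at chr4:102501209-102501358 (plus), and CXCL10, a target whose mean lay above 0, at chr4:76023498-76023647 (minus).
TNFAIP3: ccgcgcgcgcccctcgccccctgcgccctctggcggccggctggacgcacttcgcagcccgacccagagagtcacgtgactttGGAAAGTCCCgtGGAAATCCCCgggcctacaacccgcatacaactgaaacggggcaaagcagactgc
NFKBIA: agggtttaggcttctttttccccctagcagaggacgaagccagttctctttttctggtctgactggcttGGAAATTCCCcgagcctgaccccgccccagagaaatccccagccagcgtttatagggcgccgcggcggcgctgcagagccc
CD83: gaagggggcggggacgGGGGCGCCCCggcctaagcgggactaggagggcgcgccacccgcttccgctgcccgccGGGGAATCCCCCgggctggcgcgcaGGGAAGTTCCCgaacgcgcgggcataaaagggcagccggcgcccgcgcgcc
NFKB1: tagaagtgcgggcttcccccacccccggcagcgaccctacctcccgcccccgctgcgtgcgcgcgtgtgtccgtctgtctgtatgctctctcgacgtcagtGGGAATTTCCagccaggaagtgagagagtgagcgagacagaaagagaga
CXCL10: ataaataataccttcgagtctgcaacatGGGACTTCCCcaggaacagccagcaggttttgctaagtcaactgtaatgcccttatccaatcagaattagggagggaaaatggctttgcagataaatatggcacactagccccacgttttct
The TNFAIP3 window held matches 67 to 58 and 55 to 46 bases before the start, and the NFKBIA window 1 match, 81 to 72 bases before it. CD83 held 3 stretches, the nearest 51 to 41 bases before the start, and NFKB1 held 1 at 49 to 40 bases. The other CD83 window and the other NFKB1 window, not printed, held no match. CXCL10 held matches 122 to 113 bases before the start and, beyond the bases shown, 177 to 168. The windows of RELA, SGK1, IER5, CENPE, ASPM and BCL3 held none of these letters. The 15 lowest and 15 highest means with 1 sign on all arrays and an unadjusted limma p under 0.05 were also searched. A match was present for 4 of the 13 low genes with a window and for 1 of the 13 high ones. Among genes of the target lists with a window it was present for 15 of 28 cytokine and chemokine genes, 12 of 27 surface molecule genes, 9 of 26 transcription factor and enzyme genes and 2 of 13 survival genes. A match describes the sequence and says nothing about binding in these cells.

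Of the feedback inhibitors, TNFAIP3 and NFKBIA lay farthest from 0. TNFAIP3, which encodes the ubiquitin-editing inhibitor A20, read -1.19, -1.34 and -0.59 at 1, 3 and 6 h, a mean of -1.04 ± 0.40 (SD, n = 3), or 2.05-fold lower (limma adjusted p = 0.805). All arrays lay below 0, and the 6 h array was the one nearest to it. Its 6 probes had means from -1.11 to -0.97. At 1 and 3 h every probe read -0.83 or lower. At 6 h they parted, with 4 probes between -0.91 and -0.70 and the remaining ones, 34761_1 and 35299_1, at -0.27 and 0.07. The RPS3 siRNA arrays gave -0.99, -0.54 and -0.38 for TNFAIP3, and the difference between the siRNAs, -0.40, did not pass (limma adjusted p = 1.00).

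NFKBIA, which encodes IkB-alpha, the inhibitor that retains p65 in the cytoplasm, read -0.995, -0.79 and -0.46, a mean of -0.75 ± 0.27 or 1.68-fold lower. Its 5 probes had means from -0.98 to -0.42, and every probe lay below 0 at every time. The highest single NFKBIA reading was -0.07, from probe 34886_1 at 6 h, a probe that read -1.30 at 1 h. On the RPS3 siRNA arrays NFKBIA read -0.91, -0.51 and -0.37.

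The other inhibitors and IkB-like proteins lay closer to 0. BCL3, an IkB-like protein that binds p50 and p52 dimers, read -0.46, 0.00 and -0.51, a mean of -0.32 ± 0.28 from 1 tested probe. Its untested probe 17945_1, blank at 6 h, read -0.21 and -0.90 at 1 and 3 h. Probe 27954_1, blank at 3 h, read -0.06 and -0.15 at 1 and 6 h. NFKBIE, which encodes IkB-epsilon, read -0.62, -0.23 and 0.16, and NFKBID, an IkB-like nuclear protein, read -0.48, -0.11 and -0.10, each a mean of -0.23. These genes were lowest at 1 h or, for BCL3, at 6 h. Without the 1 h array NFKBIE averaged -0.04 and NFKBID -0.11. NFKBIB, which encodes IkB-beta, read -0.41, 0.05 and -0.03. CYLD, a deubiquitinase that limits IkB kinase activation, read 0.03, -0.53 and 0.07, and so departed from 0 on the 3 h array alone. TNFAIP2 averaged 0.01 and NLRC5 0.09, with arrays on both sides of 0. Of the 9 tested members of the list 7 had a mean below 0 and 3 lay below 0 on all arrays, with a median of -0.23, against 43.7% of features below 0 and a median of 0.02 over all symbols. At 1, 3 and 6 h the list's median was -0.46, -0.11 and -0.10.

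The Rel subunits all had means below 0. NFKB1, which encodes p105 and p50, the usual partner of p65, read -0.65, -1.11 and 0.11, a mean of -0.55 ± 0.62, with a limma adjusted p of 0.940. The 6 h array was on the other side of 0 from the first 2, and without it the NFKB1 mean was -0.88. Probe 35046_1 set this range, with -1.21, -1.76 and 0.60, while probe 28585_1 read -0.35, -0.79 and -0.44 and stayed below 0 throughout. With the median of the probes in place of their mean, NFKB1 averaged -0.34. RELB, the subunit of the alternative pathway, read -0.46, -0.34 and -0.04, a mean of -0.28 ± 0.22, with probe means from -0.61 to 0.10. NFKB2, which encodes p100 and p52, read -0.32, -0.20 and -0.20, a mean of -0.24 ± 0.07. One of its 4 probes, 27660_1, read -0.61, -0.62 and -0.62, while the means of the others lay between -0.17 and -0.08. REL, which encodes c-Rel, the subunit abundant in activated T cells, read -0.31, -0.34 and 0.03. The 5 subunits had medians of -0.41, -0.34 and -0.04 at 1, 3 and 6 h. On the RPS3 siRNA arrays NFKB1 averaged -0.23, RELB 0.05, NFKB2 -0.14 and REL -0.02, and none of the 4 differences from p65 siRNA passed (limma adjusted p = 1.00 for each).

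**Figure D3:**
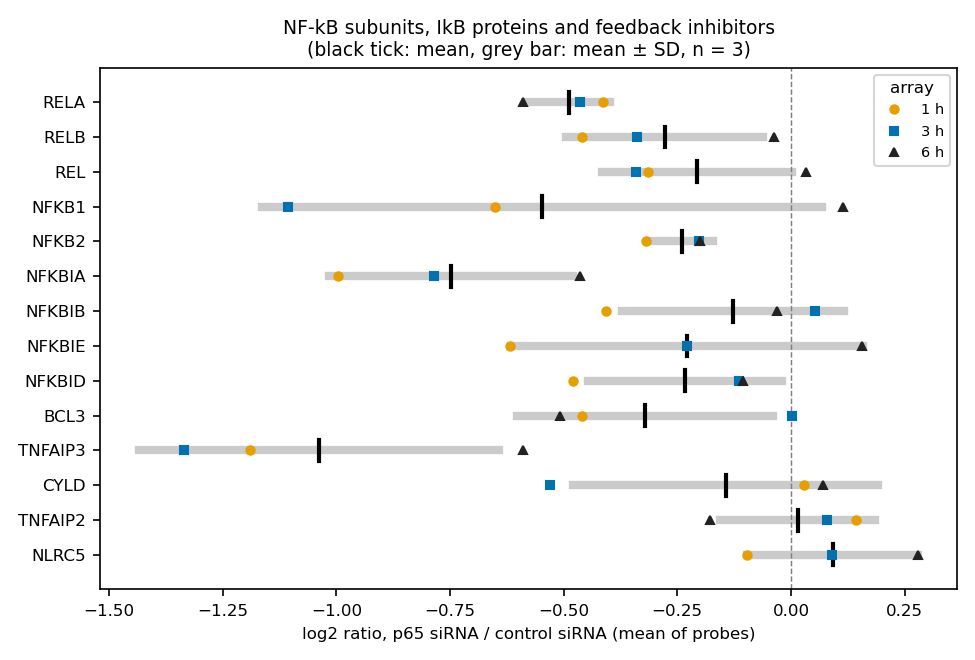
Log2 ratio of p65 siRNA over control siRNA (x axis) for the 14 tested genes of the Rel and IkB families and feedback inhibitors, with a marker per array (1, 3 and 6 h), a black tick for the mean and a grey bar for the mean ± SD (n = 3). RELA, RELB, NFKB2, NFKBIA, NFKBID and TNFAIP3 lie below 0 on all 3 arrays, and CYLD, TNFAIP2 and NLRC5 have arrays on both sides of 0.

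Genes upstream of IkB gave small values. Of 18 tested IkB kinase and upstream signalling genes, 14 had means below 0, 5 lay below 0 on all arrays, and the median was -0.09. UBE2V1, a ubiquitin-conjugating cofactor for the chains that recruit the kinase complex, read -0.25, -0.53 and -0.22, a mean of -0.33. TRAF3, a negative regulator of the alternative pathway, averaged -0.23 and TRAF1 -0.17. The kinase subunit gene CHUK averaged -0.08, MALT1 -0.06 and BCL10 -0.12. These 3 were picked by role rather than by their p, after their values were seen. The range over the whole list was -0.33 to 0.15.

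CD83 and SGK1 were the target genes that stood beside the inhibitors. CD83, a surface glycoprotein of activated lymphocytes and dendritic cells, read -0.66, -0.58 and -0.51, a mean of -0.58 ± 0.07 or 1.50-fold lower (limma adjusted p = 0.940). Its arrays lay closer together than those of any gene described so far apart from NFKB2. Of its 9 tested probes 8 had means below 0. The lowest, 17066_1, read -0.98, -0.83 and -1.06, and the only one above 0, 29824_1, read -0.49, 0.46 and 0.28. SGK1, a serum- and glucocorticoid-regulated kinase, read -0.76, -0.41 and -0.68, a mean of -0.62 ± 0.18 or 1.53-fold lower. All 4 SGK1 probe means were below 0, from -0.85 to -0.29. On the RPS3 siRNA arrays CD83 averaged -0.75 and SGK1 -0.77, and neither difference from p65 siRNA passed (limma adjusted p = 1.00).

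The remaining surface molecules were mixed. CD69, an early activation antigen, read -0.11, -0.58 and -0.51, a mean of -0.40, with all 4 of its probes below 0 at every time. The RPS3 siRNA arrays gave 0.43, 0.10 and -0.39 for CD69, and the difference between the siRNAs, -0.45, did not pass the limma test. FAS, the death receptor, read 0.04, -0.48 and -0.65, and its 4 probes were alike at each time: near 0 at 1 h, between -0.74 and -0.30 at 3 h and between -0.72 and -0.56 at 6 h. F3, the tissue factor gene, averaged -0.29 and lay below 0 at all times. TLR2, a receptor for bacterial lipopeptides, read -0.01, 0.46 and 0.19, with 2 of its arrays above 0. Of 32 tested members of the list 13 had means below 0 and the median was 0.04, so CD83, CD69 and FAS lay below the middle of it.

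Cytokine and chemokine targets lay on the other side. Of 37 tested members, 26 had means above 0 and 7 lay above 0 on all 3 arrays, with a median of 0.07. CXCL11, an interferon-inducible chemokine, read 0.40, 1.34 and 0.18, a mean of 0.64 ± 0.62 from 1 probe. CXCL10, its close relative, read 0.15, 0.39 and 0.30, a mean of 0.28, with 3 of its 4 tested probes averaging 0.35 to 0.40 and the fourth -0.02. Both lay above 0 at all 3 times, and on the RPS3 siRNA arrays they averaged 0.04 and 0.12. IL6 read 0.00, 0.78 and 0.24, CXCL6 averaged 0.27, and TNFSF10, which encodes the death ligand TRAIL, averaged -0.30. IL2, the T-cell growth factor, read -0.08, -0.02 and 0.02, TNF -0.11, -0.06 and -0.14, and CXCL8 -0.13, 0.03 and -0.28. These 3 classical targets, picked by role after their values were seen, stayed within 0.3 of 0 at each time.

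The cytokine values leaned on 1 array. Its medians were -0.04, 0.26 and 0.02 at 1, 3 and 6 h, and 29 of 37 members lay above 0 at 3 h; without the 3 h array the median was -0.002. On that 3 h array markers of lineages other than T cells also lay above 0, 22 of 29 with a median of 0.16, among them all 5 erythroid and megakaryocyte markers with a median of 0.41. The same array had the widest spread of the 3. What part these features had in the cytokine values was not tested.

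Survival genes and transcription factors among the targets had list medians near 0. Single means ran from -0.30 to 0.32 for survival genes. For transcription factor and enzyme genes they ran from -0.62 (SGK1) to 0.68 (CYP1B1). Of 14 survival genes 9 had means below 0, with a median of -0.04. BCL2A1, an anti-apoptotic BCL2 relative, averaged -0.30, BIRC2, which encodes cIAP1, -0.19, and XIAP 0.32. BNIP3, a mitochondrial BCL2-family protein, averaged 0.25. Of 40 target transcription factor and enzyme genes 24 had means below 0, with a median of -0.02. Beside SGK1 the smallest p-values there belonged to UBD, a ubiquitin-like modifier, at 0.04, 0.84 and 0.48, to RELB, given above, to CYP1B1, a cytochrome P450, at 0.04, 1.46 and 0.54, and to SPI1, whose probes disagreed. UBD and CYP1B1 read highest at 3 h, and RELB and SPI1 averaged -0.28 and -0.22.

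**Figure D4:**
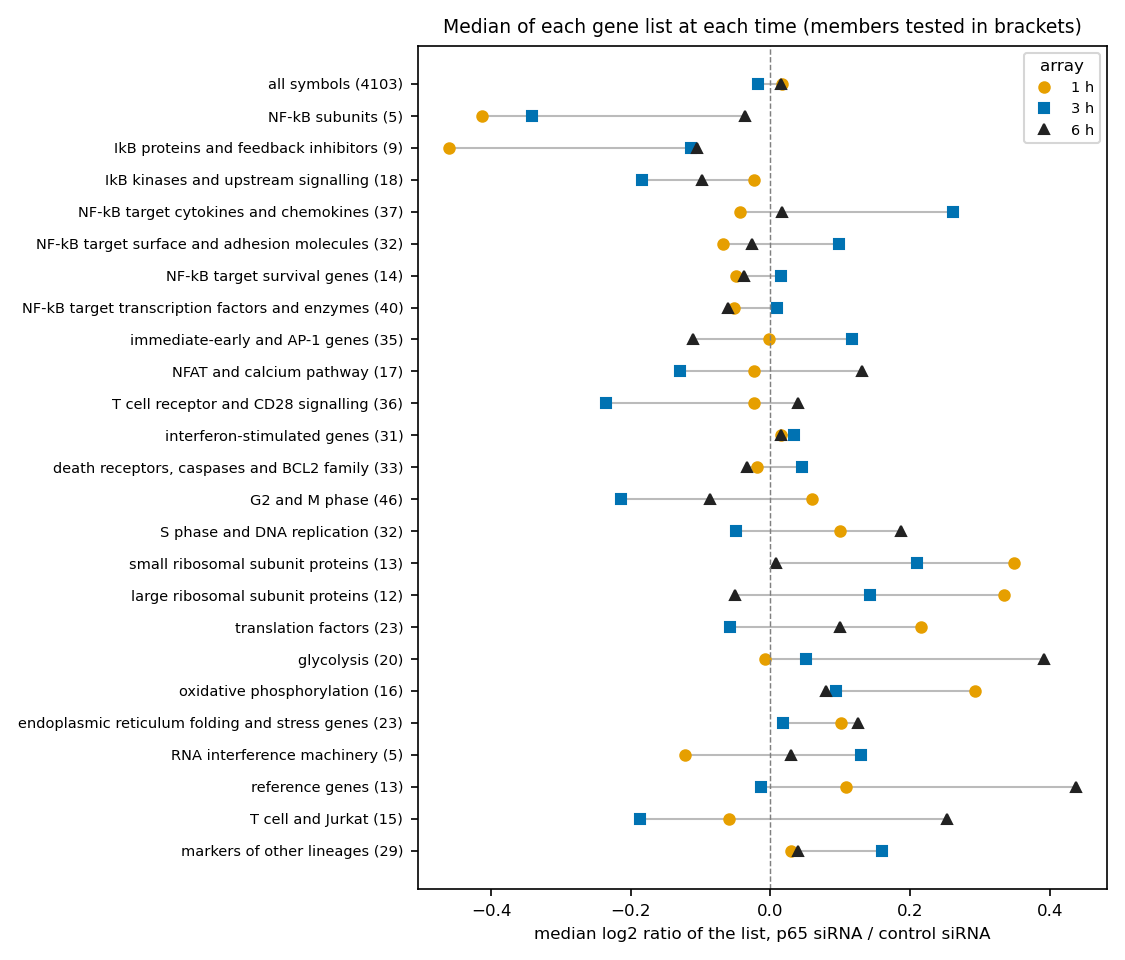
Median log2 ratio of p65 siRNA over control siRNA (x axis) in each gene list on each array, with the number of tested members in brackets and a marker per time. The Rel subunits and the IkB list have their lowest medians at 1 h, cytokine targets read 0.26 at 3 h, and glycolysis and reference genes read 0.39 and 0.44 at 6 h.

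Beyond NF-kB targets, activation genes were mostly near 0. Among 35 immediate-early and AP-1 genes 17 had means below 0. IER5, an immediate-early response gene, read -0.60, -0.33 and -0.48, a mean of -0.47 ± 0.13 from 1 probe. ZFP36L1, a protein that destabilises mRNAs, averaged -0.36, BTG1, an antiproliferative gene, -0.21, ZFP36L2, a relative of ZFP36L1, 0.22 and CCN1, a matricellular protein, 0.24. Of 36 T-cell receptor and CD28 signalling genes 26 had means below 0, with a median of -0.06 that came from the 3 h array (-0.24 at 3 h, 28 of 36 below 0). PTPRC, which encodes the phosphatase CD45, read -0.25, -0.66 and -0.17 over 9 probes, and PIK3R1, the regulatory subunit of PI3 kinase, read -0.50, -0.77 and -0.06. LCK, the proximal kinase, read 0.18, 0.15 and 0.72. Of 17 NFAT and calcium pathway genes 16 lay below 0 at 3 h (median -0.13) and 5 at 6 h (median 0.13).

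RAG1, which encodes a subunit of the V(D)J recombinase, had 1 of the steadier values above 0. It read 0.38, 0.54 and 0.52, a mean of 0.48 ± 0.09 or 1.39-fold higher, with both probes above 0 on every array and a limma adjusted p of 0.940. The RPS3 siRNA arrays gave 0.26, 0.38 and 0.51. Of 15 tested T-cell and Jurkat markers 9 had means below 0, and CD3D, CD3E, CD3G and CD247, which encode the CD3 chains, averaged 0.14, 0.01, -0.02 and 0.10. GATA3, a T-cell lineage factor, averaged -0.37 with all arrays below 0.

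Among 46 tested G2 and M phase genes 5 were lower at an unadjusted limma p under 0.05. Over all 4103 symbols 88 were, and over all features 2.09%. CENPE, a kinetochore motor, read -0.57, -0.86 and -0.36, a mean of -0.59 ± 0.25, and all 6 of its probe means were below 0. They were uneven: probe 29870_1 averaged -1.46, with -2.60 at 1 h, and probe 28528_1 averaged -0.13. ASPM, a spindle-pole protein, read -0.53, -0.89 and -0.27, a mean of -0.56 ± 0.31, with 10 of 11 probe means below 0. DEPDC1 averaged -0.48, SGO2, which protects centromeric cohesion, -0.36 and CDCA2 -0.30. Over all 46 tested G2 and M phase genes 26 had means below 0 and the median was -0.03, so these genes stood at the low end of a list centred near 0. On the RPS3 siRNA arrays CENPE averaged -0.84 and ASPM -0.76. Of 32 S phase and DNA replication genes 27 had means above 0, with a median of 0.07, but only 4 lay above 0 on all 3 arrays. The list's medians were 0.10, -0.05 and 0.19 at 1, 3 and 6 h, and 21 of 32 lay below 0 at 3 h.

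Ribosomal protein genes lay mostly above 0. Of 13 small-subunit genes 12 had means above 0, with medians of 0.35, 0.21 and 0.01 at the 3 times. The 12 large-subunit genes all had means above 0, with medians of 0.33, 0.14 and -0.05. RPS6 averaged 0.35, RPS4X 0.33 and RPLP1 0.36, while RPS15A averaged -0.40 and was below 0 on all arrays. RPS3, the target of the second siRNA, read 0.11, 0.01 and 1.11 here and averaged -2.16 with its own siRNA. Its difference between the siRNAs did not pass (limma adjusted p = 0.675). Of 23 translation factors 19 had means above 0, with medians of 0.22, -0.06 and 0.10 at the 3 times. Among them EIF4G1, a scaffold of translation initiation, read -1.25, -0.73 and -0.01, and EEF1A1, the main elongation factor, 0.51, 0.22 and -0.08.

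Glycolytic genes stood out at 6 h. Of 20 tested members 18 lay above 0 on the 6 h array, with a median of 0.39, against medians of -0.01 at 1 h and 0.05 at 3 h. ENO1, which encodes enolase, read -0.17, -0.06 and 1.50 over 4 probes, GAPDH 0.26, -0.05 and 1.00, and ALDOA 0.12, 0.10 and 1.10. Among reference genes that are not glycolytic, TUBB, a tubulin, read 0.07, 0.13 and 0.59, and PPIB, a cyclophilin, 0.21, 0.15 and 0.45. The actin genes, looked up after their values were seen, read 0.02, -0.10 and 1.17 (ACTB) and 0.11, -0.01 and 0.78 (ACTG1). The median of the 13 reference genes was 0.44 at 6 h, with 9 above 0 and 4 below. That list includes the glycolytic genes GAPDH, PGK1 and LDHA, so it is not separate from the glycolytic values. The RPS3 siRNA array of that time gave ENO1 1.46 and GAPDH 1.05. What the reference genes' shift contributed to the glycolytic values was not tested.

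The 15 lowest named symbols, taken from those with an unadjusted p under 0.05 and 1 sign on all arrays, held further genes beside those above. ARAP2, a GTPase-activating protein, averaged -0.90, INO80D, a subunit of the INO80 chromatin remodeller, -0.84, PARPBP -0.71 and USP8, a deubiquitinase of endosomes, -0.68. DNAJC3, an endoplasmic reticulum cochaperone, read -0.56, -1.17 and -0.26, and ETS1, a lymphoid transcription factor, -0.01, -0.78 and -0.77. ANKHD1 averaged -0.62 and AP1G1, an adaptor of clathrin coats, -0.51. Of the 15, ARAP2, INO80D, PARPBP, USP8, EIF4G1, ANKHD1, ETS1 and AP1G1 rested on 1 tested probe each. With probes that had a value on at least 2 of the arrays included, the USP8 mean was -0.20. Several sizes leaned on 1 array. Without the 3 h array the mean was -0.33 for PARPBP, -0.41 for DNAJC3 and -0.31 for AP1G1. Without the 1 h array it was -0.37 for EIF4G1. For USP8 the mean without the 6 h array was -0.16, but probe 33204_1, blank at 6 h, then entered the average. That probe read -0.35 and 1.49 at 1 and 3 h, so the USP8 value does not show the effect of the 6 h array alone.

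The 15 highest rested on less. All but RAG1 and RAD51B had a single tested probe. STX8, a syntaxin of endosomal fusion, averaged 0.98 and read 0.14, 1.88 and 0.91. GM2A, a lysosomal lipid-binding protein, averaged 0.72, ROS1, a receptor tyrosine kinase, 0.70, CELA3A, a pancreatic elastase, 0.63, and COL14A1, a collagen, 0.56. SSR4, a subunit of the translocon-associated complex, read 0.51, 0.37 and 0.80. EPHA2 averaged 0.54, the transcriptional repressor ZEB2 0.52, WDR3 0.51, RAD51B 0.46, PIR 0.46, HUS1 0.46 and TTBK2 0.45. With probes that had a value on at least 2 of the arrays, WDR3 averaged 0.23. That brought in probe 32133_1, blank at 6 h, which read 0.10 and -0.70 at 1 and 3 h. Without the 3 h array the mean was 0.52 for STX8, 0.36 for GM2A, 0.41 for ROS1, 0.21 for CXCL11, 0.33 for ZEB2, 0.24 for RAD51B, 0.20 for HUS1 and 0.18 for TTBK2. Without the 6 h array it was 0.28 for EPHA2 and 0.12 for WDR3. For CXCL11, EPHA2 and WDR3 a probe that was blank on the omitted array also entered. Their values therefore do not show the effect of the omitted array alone. Apart from SSR4, EPHA2 and CELA3A, each of the 15 read highest on the 3 h array.

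**Figure D5:**
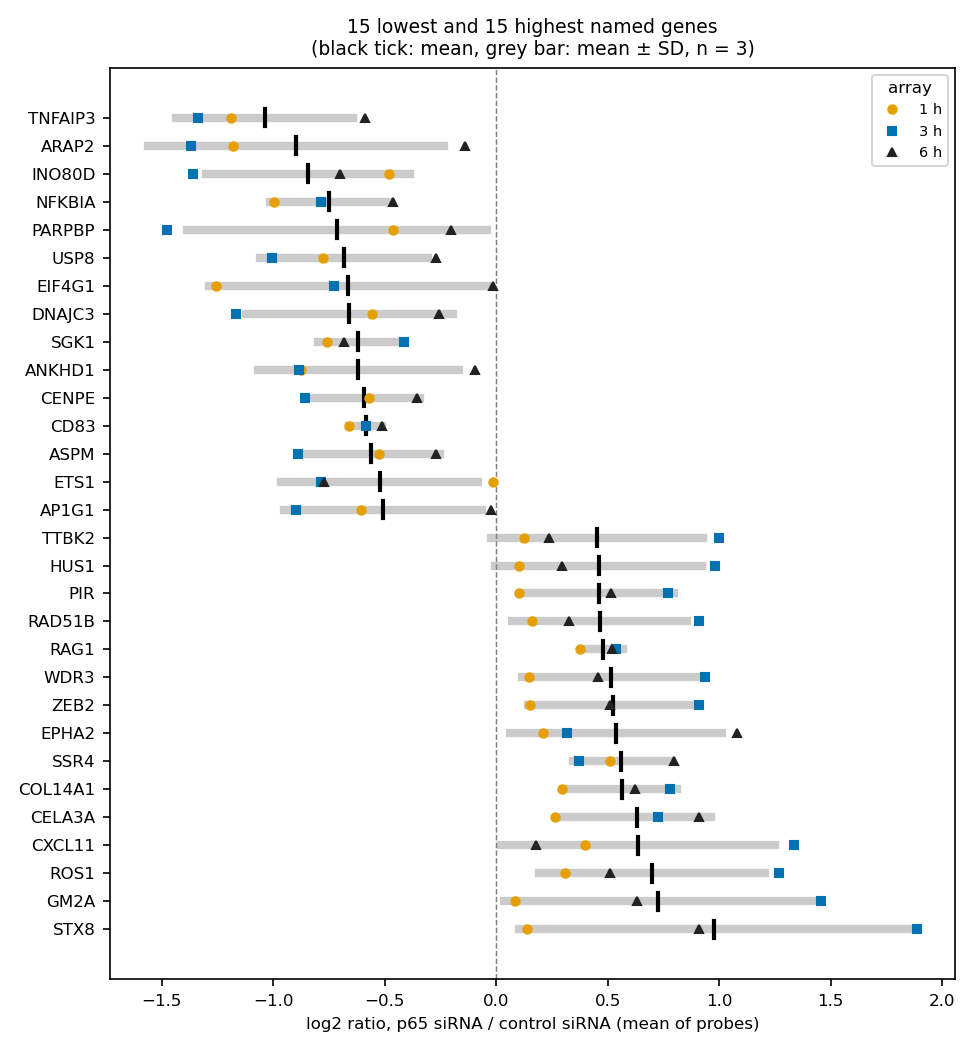
Log2 ratio of p65 siRNA over control siRNA (x axis) for the 15 lowest and 15 highest named symbols, with a marker per array (1, 3 and 6 h), a black tick for the mean and a grey bar for the mean ± SD (n = 3). CD83 and RAG1 have the narrowest bars, and most of the highest symbols have their 3 h marker far to the right, as STX8 does at 1.88.

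Single times held values that the mean over arrays hides, and these have no replicate. Only symbols with at least 2 tested probes, all on 1 side of 0 at that time, were considered. At 1 h the lowest after TNFAIP3 and NFKBIA were REST, a repressor of neuronal genes, at -0.83, and RGS16, a regulator of G-protein signalling, at -0.79. The highest was E2F5 at 0.59. At 3 h CD2AP, an adaptor of the T-cell CD2 receptor, read -1.62 and ITGA4, the integrin alpha-4 chain, -1.41, and both genes had every tested probe at -0.76 or lower at that time. Of the ITGA4 probes left untested for blanks at other times, 26140_1 read 0.91 at 3 h and 35040_1 read -2.03. At the other end PRKAA2, an AMP-activated kinase subunit, read 1.85 and the interferon-induced IFIT1 1.19. At 6 h PRKD3, a protein kinase D, was lowest at -0.72, before SGK1 and FAS, and ENO1, MCM4 (1.07) and RGS4 (1.02) were among the highest. The PRKD3 value does not hold for all its probes. Probes 17155_1 and 32039_1, untested for a blank at another time, read 1.32 and 0.15 at 6 h. CCR7, a lymph-node homing receptor, read -1.11 at 3 h, with probes at -2.02 and -0.20.

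Among symbols with 2 or more tested probes, the largest ranges over the 3 arrays belonged to CCR1, HSP90B1, PRKAA2, MCM4 and ENO1. CCR1, a chemokine receptor, read -0.21, 0.04 and 2.03, a value set by probe 16944_1, which read 7.21 at 6 h while the other tested probes read -0.47, 0.31 and 1.07. HSP90B1, the endoplasmic chaperone GRP94, read -0.01, -1.08 and 0.95, and both of its probes followed that course. MCM4, a helicase subunit, read -0.62, -0.23 and 1.07. For these genes the sign of the ratio differed between times, so their mean over arrays does not describe any one of them.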

How the data were processed

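The deposited table gives 1 log ratio per probe and array, Cy5 over Cy3, read here as log2, with Cy5 holding the siRNA sample and Cy3 the control per the labels. The log base, image analysis, background correction, blanking rule and normalization are not given in the sources used here. A ratio of siRNA over control is the likely direction, not a settled one, and a natural log would make each size larger on the log2 scale. The deposited medians were 0.001, -0.018 and 0.001 on the p65 siRNA arrays, so the values were already centred, while their scale and direction are unstated.

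Each array was centred on its median. Symbols came from the platform annotation: 10169 probes had 1 symbol (4604 symbols), 4 several and 5073 none, and 501 symbols had no tested probe. Probes with a value on all 3 p65 siRNA arrays were kept (3303 were left out for a blank), and probes of a symbol were averaged. limma 3.58.1 in R 4.3.3 (lmFit, eBayes) tested each mean against 0, with the spread shared over all 6 arrays. A Benjamini-Hochberg adjusted p under 0.05 counted as a pass. No label names separate cultures. The p-values therefore reflect only the spread among arrays of different times, pooled over both siRNAs, which may be technical. Variation among control cultures cannot be separated from the rest of that spread, and dye bias is not removed. Control RNA may be shared with the RPS3 siRNA arrays, and the limma test of a difference between the siRNAs takes the arrays as independent. Values of both siRNAs are otherwise only set side by side.

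Named genes were RELA, the Rel and IkB lists, the 15 highest and 15 lowest means with 1 sign and an unadjusted p under 0.05, the 5 smallest p-values of each other list, the 8 highest and 8 lowest symbols at each time with 2 or more probes on 1 side of 0, and the 5 widest ranges among symbols with 2 or more probes. CD3 genes and GATA3 come from the T-cell marker list. Other genes outside this rule are said in the text to be chosen after their values were seen. The members and lists were chosen with earlier results of these data known. Upstream sequences are from RefSeq (GRCh38.p14). Alternatives changed the arrays in the fit, time and experiment ID series as covariates, centring, scaling, blanks, probe averaging, the variance model, and left out each array. Leaving out a p65 siRNA array also let in probes that were blank on that array alone.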

Additional observations from a re-analysis of the deposited data

Results flagged for a closer look

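For 5 genes named in the lists or at single times, all 3 p65 siRNA arrays lay on one side of 0 and all 3 RPS3 siRNA arrays on the other. The search covered the named genes only, many of them named for their p65 siRNA values. The share over all features was not counted, so the 5 are given as values alone. PTPN6, which encodes the phosphatase SHP-1, read -0.15, -0.50 and -0.01 with p65 siRNA at 1, 3 and 6 h and 0.08, 0.17 and 0.33 with RPS3 siRNA, a difference of -0.41. RPS16, of the small ribosomal subunit, read 0.35, 0.34 and 0.14 against -0.20, -0.08 and -0.24, a difference of 0.45. PGAM1, a glycolytic mutase, read 0.36, 0.10 and 0.38 against -0.22, -0.34 and -0.07, a difference of 0.49 over 7 probes. MANF, an endoplasmic reticulum stress protein, differed by 0.42. RGS4, a regulator of G-protein signalling, differed by 0.67, but read only 0.001 with p65 siRNA at 1 h. Its probe 35556_1 differed by 1.18 and its probe 29268_1 by 0.17. The latter probe averaged 0.38 with RPS3 siRNA, on the same side of 0 as with p65 siRNA. The limma test of each difference did not pass (adjusted p = 1.00 for each of the 5).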

How the results depend on the processing

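limma called 0 genes and 0 probes under every alternative run; the lowest adjusted p was 0.0840 for genes, with the time point as a block, and 0.0782 for probes, with values on all 6 arrays. At an unadjusted p under 0.05 the block gave 788 genes (455 higher, 333 lower) and 1268 probes, against 379 and 592. Leaving out 1 array gave 229 to 489 genes (137 to 307 higher, 92 to 279 lower) and 340 to 728 probes; the lowest totals, 229 and 340, came without the p65 siRNA 3 h array. Of the 42 genes of the Rel and IkB lists and the 15 highest and 15 lowest means, 38 kept their sign. Leaving out 1 array gave -0.22 to 0.011 for NFKBIB (above 0 without 1 h), -0.050 to 0.11 for TNFAIP2 (-0.050 without 1 h, -0.018 without 3 h), -0.25 to 0.050 for CYLD (above 0 without 3 h) and -0.0027 to 0.19 for NLRC5 (below 0 without 6 h); the cause was not tested. Means of RELA (-0.53 to -0.44), CD83 (-0.58 to -0.49), NFKBIA (-0.89 to -0.62) and TNFAIP3 (-1.26 to -0.89) kept their sign with any array left out. Blanks and unknown intensities limit what the 6 h array can show, and 3 arrays limit every value.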
